A study of Arabidopsis thaliana with 12 samples.

Results

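The transcriptome described here is that of wild-type Arabidopsis thaliana root tips on plain medium, the group labelled WT_MS, which holds 3 of the 12 samples of the study. The group was chosen by its labels alone, and all 33557 genes listed for it were used, of which 22865 (68.1%) had a value above 0. The study set wild type and a line called 6-6 side by side on Murashige and Skoog medium (MS) and on MS with NaCl, 4 groups of 3 samples, and its title concerns the kinase gene ITPK4. Per the labels' protocols, wild-type seedlings were grown for 8 days at 22 °C under 16 h of light and 8 h of dark and then kept for 24 h on 1/2-strength MS without NaCl. The last 1 cm or so of the root was taken for RNA. No transgene or agent is named for these plants, and neither separate plates nor the number of roots per sample are stated for the 3 samples.

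The root tip holds the dividing cells of the meristem, the cap that covers it, and, shootward, cells that elongate and differentiate into hair cells, endodermis, xylem and phloem. Growing root cells are known for a heavy investment in ribosomes, wall glycoproteins and water channels, and roots of the Brassicaceae store beta-glucosidases in endoplasmic reticulum bodies, which act on defence glucosides. The level the authors deposited is FPKM, a fragment count corrected for the length of the transcript and for library size, so levels of different genes can be set side by side per length. Each gene has 1 value for the 3 samples together: no spread between samples can be given, the depth is unknown, and an order between genes of nearly equal value has no support.

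Expression was spread over many genes and not held by a few. In all, 18664 genes (55.6%) stood at 1 FPKM or over, 11361 (33.9%) at 10 or over, 1845 (5.50%) at 100 or over and 72 (0.215%) at 1000 or over. The 72 highest genes held 11.3% of the summed FPKM of 908743, and the 1845 genes at 100 or over held 62.9%. The highest 10 genes summed to 2.66%, the highest 100 to 14.2% and the highest 1000 to 50.4%. It took 979 genes to reach 50% of the sum and 7558 to reach 90%. Among genes at 1 FPKM or over, the median level was 14.5 FPKM and the 99th percentile 645 FPKM. The thresholds cut a continuous range: AT2G37130, a peroxidase gene, lay just inside the highest class at 1000.4 FPKM, and AT3G06700, a ribosomal protein gene, just outside it at 984 FPKM.

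**Figure D1:**
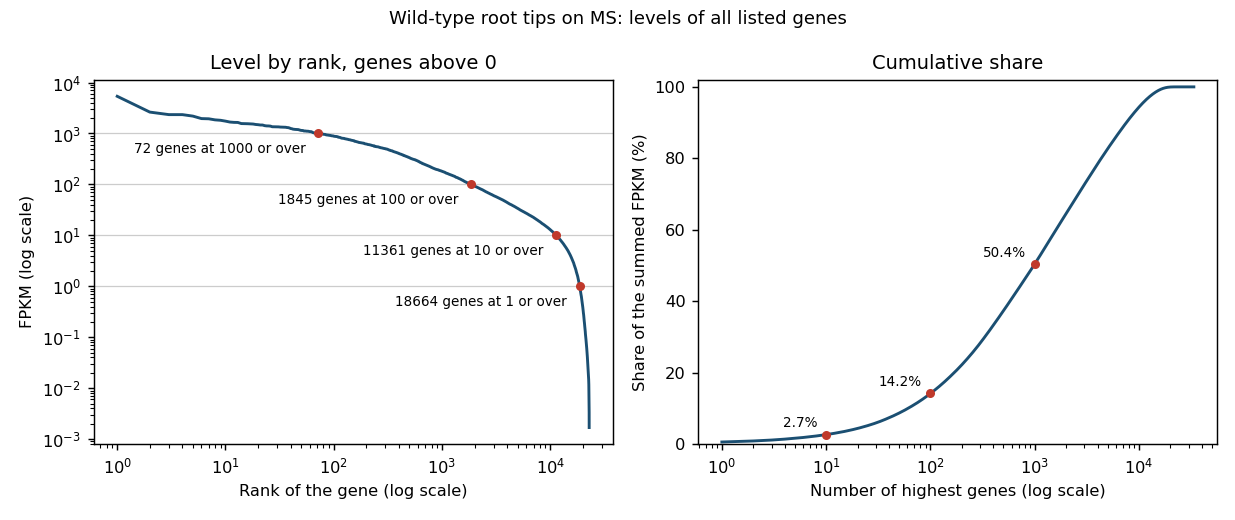
Left, the FPKM of each gene above 0 against its rank, both on log scales, with the genes counted at each threshold (red points). Right, the share of the summed FPKM (%) held by the given number of highest genes (log scale), which reached 14.2% at 100 genes and 50.4% at 1000 genes.

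The single highest gene was PYK10 (BGLU23, AT3G09260), the beta-glucosidase that fills the endoplasmic reticulum bodies of roots, at 5364 FPKM, or 0.590% of the sum. It lies in the locus chromosome 3, 2839000 to 2843781 (TAIR10), which the files share with AT3G09250, a nuclear transport factor 2 family gene at 9.31 FPKM. The next were the tonoplast water channel GAMMA-TIP (AT2G36830) at 2626 FPKM, the cyclophilin ROC5 (AT4G34870) at 2343 FPKM, the mitochondrial ADP/ATP carrier AAC1 (AT3G08580) at 2342 FPKM and the glutathione S-transferase GSTU19 (AT1G78380) at 2190.2 FPKM. Then came the small membrane protein gene RCI2B (AT3G05890) at 1958 FPKM, the metallothionein MT1C (AT1G07610) at 1940.0 FPKM and the arabinogalactan protein AGP22 (AT5G53250) at 1849 FPKM. PYK10 thus stood apart from the second gene, while ranks 2 to 8 spanned 2626 to 1849 FPKM.

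The 30 highest nuclear genes alone in their locus ran down to 1336 FPKM. Of these, 6 encoded cytosolic ribosomal proteins, 5 arabinogalactan proteins and 3 aquaporins. Central metabolism was represented by GAPC1, the cytosolic glyceraldehyde-3-phosphate dehydrogenase, at 1746 FPKM, by GSR2, a cytosolic glutamine synthetase, at 1674 FPKM and by HOG1, the S-adenosyl-L-homocysteine hydrolase, at 1564 FPKM. The translation factor eIF5A gene FBR12 had 1645 FPKM, the defensin LCR68 1544 FPKM and the gibberellin-regulated peptide gene GASA1 1532 FPKM. The list also holds COR413-PM1, annotated as a cold-regulated plasma membrane protein, at 1407 FPKM. Coding sequences of the highest genes were short: the median coding length was 552 bases in the 71 nuclear protein-coding genes at 1000 FPKM or over, and 1065 bases over all 26686 such genes with a promoter window.

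**Figure D2:**
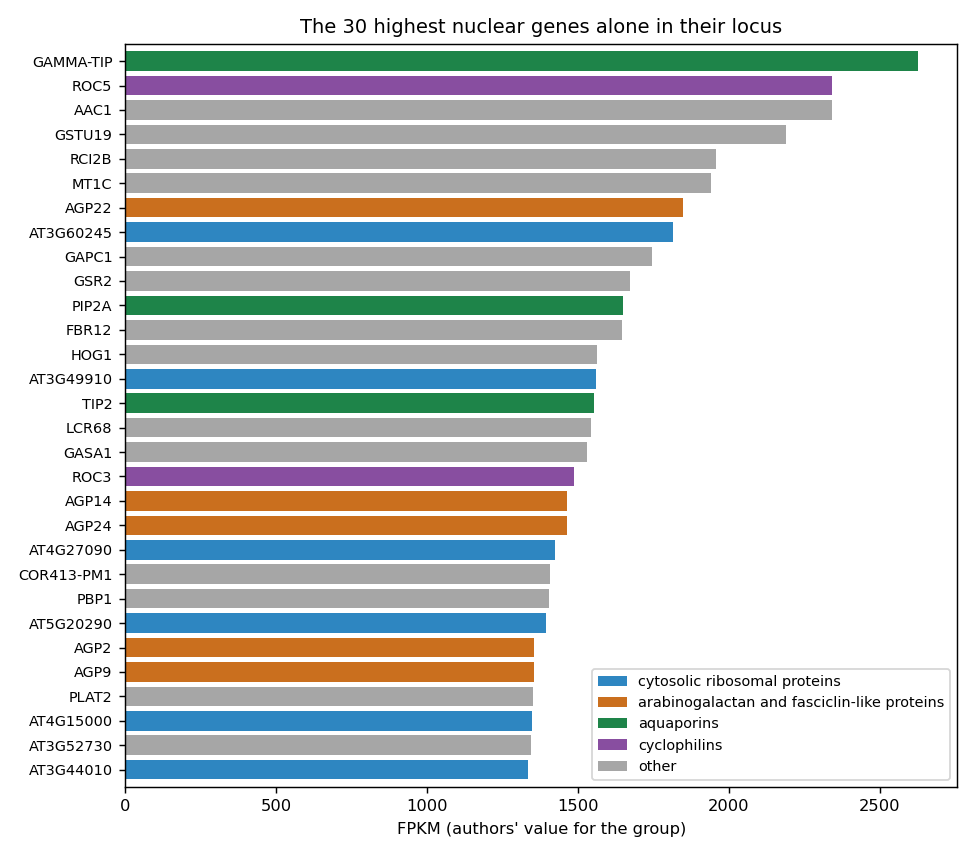
FPKM (linear axis from 0) of the 30 nuclear genes with the highest level among genes alone in their locus, 1 bar per gene, coloured by family. Water channels, cyclophilins, arabinogalactan proteins and ribosomal proteins recur among the bars, from GAMMA-TIP at 2626 FPKM down to AT3G44010 at 1336 FPKM.

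Genes were grouped into 62 families by symbol and description, which took in 4196 genes and 38.2% of the summed FPKM. Cytosolic ribosomal proteins were by far the largest at 11.4% of the sum. They were followed by nuclear genes of the mitochondrial ATP synthase and respiratory complexes at 1.76%, arabinogalactan and fasciclin-like proteins at 1.73%, aquaporins at 1.42%, lipid transfer proteins at 1.35%, glycolysis enzymes at 1.14%, glutathione S-transferases at 1.12% and class III peroxidases at 1.05%. How the level was divided inside a family varied widely. In 9 of the 62 families a single gene held over 50% of the family's sum, in 10 the highest gene held under 10%, and the median share of the highest gene was 20.3%. In 4 families, the methionine and S-adenosylmethionine cycle, tubulins, calmodulins and HSP90, every member stood at 1 FPKM or over, and in 11 families fewer than 50% of the members did.

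**Figure D3:**
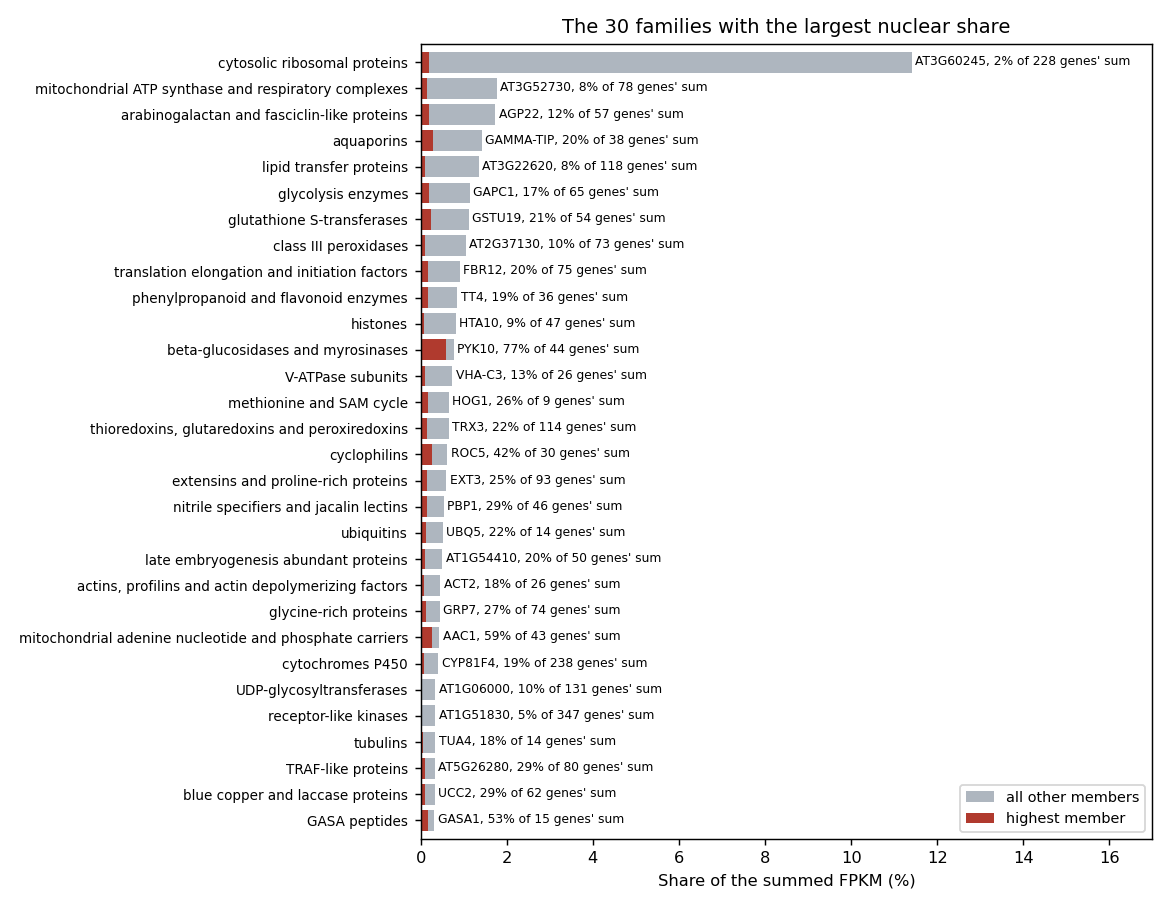
Share of the summed FPKM (%) held by each of the 30 largest families of nuclear genes, with the part of the highest member in red and the rest in grey, and the name and share of that member beside each bar. Ribosomal proteins reach 11.4% with no dominant gene, whereas PYK10 fills most of the beta-glucosidase bar.

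Of the 228 cytosolic ribosomal protein genes, 213 stood at 1 FPKM or over, 187 at 100 or over and 20 at 1000 or over. Their median was 436 FPKM, against 2.49 FPKM over all listed genes and 6.30 FPKM over protein-coding genes with a promoter window. Levels were even: 142 genes were needed to reach 90% of the family's sum, and the effective number of members (the inverse of the summed squared shares) was 143. The highest were AT3G60245, a zinc-binding ribosomal protein gene, at 1814 FPKM, AT3G49910, a gene of the SH3-like translation protein group, at 1561 FPKM, and AT4G27090, which encodes L14, at 1423 FPKM. Most ribosomal proteins of this plant are encoded by small sets of paralogs, and 59 descriptions covered 2 or more of these genes. In the 20 descriptions with a pair of genes the higher gene held a median of 65.2% of the pair's sum, and in the 23 with 3 genes it held a median of 51.7%. These sets follow the descriptions and may lack paralogs that are described otherwise. SAG24, a ribosomal protein gene at 1119 FPKM, is described only as senescence associated and stood in none of them. Counted without paralogs described otherwise, the higher gene held over 90% in 5 of the 20 pairs by description. An example is S8e, where AT5G20290 had 1393 FPKM and its partner 22.4 FPKM. L22p/L17e was more even, with AT1G67430 at 1197 FPKM and its partner at 579 FPKM.

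Other parts of the translation machinery were also high. Among 75 genes of elongation and initiation factors, FBR12 held 19.9% of the sum and the elongation factor 1-alpha gene AT5G60390 14.96%, at 1238 FPKM. The neighbouring elongation factor 1-alpha genes AT1G07920, AT1G07930 and AT1G07940 had 179, 202 and 187 FPKM. These 3 share 66.2%, 44.9% and 50.8% of their transcript words of 50 bases with another gene, so reads could be divided between them and their separate values are uncertain. Among cyclophilins, prolyl isomerases that assist folding, ROC5 held 41.5% and ROC3 (1487 FPKM) 26.4% of the sum of 30 genes. HSC70-1, the cytosolic heat shock cognate, held 46.9% of the HSP70 sum at 883.8 FPKM, with the endoplasmic reticulum chaperones BIP2 and BIP1 at 186 and 179 FPKM. The ubiquitin family took in polyubiquitin genes and ubiquitin extension genes. Of its 14 genes, UBQ5 (1029.5 FPKM), UBQ1 (979 FPKM) and UBQ6 (872 FPKM) together held 61.9% of the sum. UBQ1 and UBQ6 share their loci with other genes.

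The most lopsided of the large families was that of the beta-glucosidases and myrosinases. PYK10 alone held 76.6% of the sum of 44 genes, with 8.32 times the level of the next, BGLU21 (645 FPKM), and BGLU22 had 438 FPKM. Only 16 of the 44 were at 1 FPKM or over, and 14 were listed at 0. Genes linked to PYK10 or its lectins, which were not a list of their own, had a wide range of levels. PBP1, the PYK10-binding lectin, stood at 1404 FPKM and held 28.8% of the nitrile specifier and jacalin lectin family, ahead of the mannose-binding lectin genes AT1G52070 at 843 FPKM and JAL34 at 776 FPKM. The related lectin genes JAL33 and JAL31 had 186.5 and 119.7 FPKM. NAI1, the basic helix-loop-helix factor needed for endoplasmic reticulum bodies, had 91.3 FPKM and was second of 124 bHLH genes. The GDSL lipase-like gene GLL22, which was singled out after its value was seen, had 1159 FPKM.

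Defence and stress families differed in how far 1 gene led. LCR68 held 54.4% of the sum of 191 defensin and defensin-like genes, 171 of which were listed at 0 and 14 of which reached 1 FPKM. Their RefSeq transcripts are short, with a median of 383 bases. Of all protein-coding genes with transcripts over 300 and up to 600 bases, 71.5% were listed at 0. GLP5 held 78.5% of the germin-like sum at 1118 FPKM, 10.3 times the next member. The Kunitz inhibitor gene AT1G17860 held 56.3% of the protease inhibitor sum at 1142 FPKM and shares its locus with another gene. Other families were more even, with an effective number of members of 10.2 for glutathione S-transferases, 18.1 for class III peroxidases and 13.8 for thioredoxins, glutaredoxins and peroxiredoxins. Glutathione S-transferases, which conjugate glutathione to reactive compounds, were led by GSTU19 with 21.5% of the sum, and by the neighbouring genes GSTF10 and GSTF9 at 1280.5 and 1191 FPKM. Of 54 members, 45 were at 1 FPKM or over. Among 73 class III peroxidases, wall enzymes that use hydrogen peroxide, 55 were at 1 FPKM or over and the highest, AT2G37130 and AT3G32980 (980.1 FPKM), held only 10.5% and 10.2%. APX1, the cytosolic ascorbate peroxidase, had 961 FPKM, and TRX3, a cytosolic thioredoxin, 1301 FPKM.

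Metallothioneins showed both dominance and a limit of the values. MT1C held 67.3% of the sum, MT2B had 744 FPKM and MT3 174 FPKM, both in shared loci, and MT2A 24.6 FPKM, while MT1A was listed at 0. The whole 138-base RefSeq transcript of MT1A lies within the RefSeq transcript of AT1G07590, a tetratricopeptide repeat gene in the same locus that was listed at 1097 FPKM. How fragments were divided between these 2 genes was not tested, so neither value can be taken as the level of 1 gene.

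Water channels were prominent by their highest members, while proton pumps varied. Of 38 aquaporin genes, 27 (71.1%) stood at 1 FPKM or over, near the 68.0% of all protein-coding genes. At 100 FPKM or over stood 18 of the 38, against 5.50% of all listed genes. GAMMA-TIP held 20.3% of the sum. The plasma membrane channel PIP2A had 1650.0 FPKM, the tonoplast channel TIP2 (AT3G26520) 1552 FPKM, PIP2B 1046 FPKM and PIP1B 938 FPKM. The plasma membrane proton pump HA2 held 74.8% of its family at 646 FPKM, with HA1 second at 151 FPKM. That family of 11 genes held only 0.0950% of the summed FPKM and had a median of 4.69 FPKM. Subunits of the vacuolar proton pump were more even, with 24 of 26 genes at 1 FPKM or over and VHA-C3 first at 842 FPKM. In nitrogen uptake and assimilation, GSR2 held 57.8% of the sum of 13 genes, and the next were GSR 1 at 285.4 FPKM and the ammonium transporter AMT1;1 (locus shared) at 284.5 FPKM.

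Wall proteins formed a second group with many high members. Of 57 arabinogalactan and fasciclin-like proteins, 23 were at 100 FPKM or over and 5 at 1000 or over: AGP22, AGP14 (1466 FPKM), AGP24 (1464 FPKM), AGP2 (1355 FPKM) and AGP9 (1353 FPKM). The extensin EXT3, which cross-links in the wall, had 1333 FPKM and held 24.8% of its family. Lipid transfer proteins had 49 of 118 members at 1 FPKM or over, led by AT3G22620 (1004 FPKM, locus shared), AT3G53980 (983 FPKM) and AIR1 (982 FPKM). Families of proteins that loosen the wall or modify its polysaccharides had lower ceilings. These were 209 FPKM for XTH17 among 30 xyloglucan endotransglucosylases, 195 FPKM for EXPA9 among 34 expansins and 180.4 FPKM for PME3 among 122 pectin methylesterases and inhibitors. For cellulose synthesis, the primary wall subunit genes CEV1 (CESA3), CESA1 and CESA6 had 185, 160.2 and 122 FPKM and together 54.2% of the family's sum.

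In primary and secondary metabolism, glycolysis had 56 of 65 genes at 1 FPKM or over, with GAPC1, the aldolase FBA8 (1322 FPKM) and the enolase LOS2 (1106 FPKM) holding 40.1% of the sum together. AAC1 held 59.3% of the mitochondrial carrier sum, and AT3G52730, a subunit of the cytochrome bc1 complex, led the respiratory genes at 1346 FPKM. HOG1 and ATMS1 (1329.5 FPKM), a methionine synthase, led the methionine cycle. The flavonoid enzyme gene TT4, chalcone synthase, had 1501 FPKM in a shared locus, and further enzymes on the way to flavonols were high too: F3H (locus shared) at 701 FPKM, FLS1 at 684 FPKM and TT5 at 522 FPKM. CCoAOMT1, a methyltransferase of lignin precursor synthesis, had 1215 FPKM. Among 238 cytochrome P450 genes, 123 were at 1 FPKM or over and CYP81F4, an enzyme of indole glucosinolate modification, led at 701 FPKM in a shared locus, 3.52 times the next.

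Few regulators stood high. The 8 transcription factor families read here held 809 genes, of which 437 were at 1 FPKM or over and 12 at 100 or over. All listed genes, with pseudogenes and non-coding genes among them, had 55.6% and 5.50% at these levels. Protein-coding genes had 68.0% at 1 FPKM or over, so the transcription factor genes reached that level less often than they did. Together the transcription factor genes made up 1.02% of the summed FPKM, with a median of 1.55 FPKM. The median was 2.49 FPKM over all listed genes and 6.30 FPKM over protein-coding genes with a promoter window. The highest were the homeobox gene HB-1 (AT3G01470) at 269 FPKM and the NAC gene NAC102 at 222 FPKM, both in shared loci, and NAC083 at 195 FPKM. MYB34, a regulator of indole glucosinolate synthesis, led the MYB genes at 86.9 FPKM, and TGA1 led the bZIP genes at 164 FPKM. These rankings cover only the genes grouped here. Separate entries for upstream open reading frames, such as CPuORF1 at 643 FPKM, were in none of the 8 families. The level of a factor whose transcript carries such an entry may therefore be understated. Of 115 MADS genes, many of which act in flowers, 24 were at 1 FPKM or over and the highest, AGL42, had 41.7 FPKM. Of 347 receptor-like kinases, 217 (62.5%) were at 1 FPKM or over. This was above the share of all listed genes but below the 68.0% of protein-coding genes. The kinases had a median of 3.50 FPKM, against 6.30 FPKM over protein-coding genes with a promoter window. Only 2 were at 100 or over, where 5.50% of all listed genes stood: AT1G51830 (152 FPKM) and LRR XI-23 (107 FPKM), with FERONIA (FER) at 78.4 FPKM. Of 24 Aux/IAA repressors of auxin signalling, 18 were at 1 FPKM or over, with IAA9 at 307 FPKM and IAA16 at 247 FPKM.

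Promoters were read from RefSeq's TAIR10.1 assembly, whose nuclear chromosomes carry TAIR10 positions, as windows of 300 bases that run from 250 bases before the annotated gene start to 50 bases from it, for 26686 nuclear protein-coding genes. Each window was searched on both strands for 4 motifs. The TATA box was searched as TATAAA. The telo box was searched as AACCCTA. The core of site II was searched as GGCCCA. The G-box was searched as CACGTG, which reads the same on both strands, and no motif contains another. Telo boxes and site II elements are known from promoters of ribosomal protein genes. The share of promoters with GGCCCA was 42.3% among the 71 genes at 1000 FPKM or over, 25.3% at 100 to below 1000, 19.4% at 10 to below 100, 17.1% at 1 to below 10, 10.2% above 0 and below 1, and 6.82% among genes listed at 0, with 15.7% over all promoters. AACCCTA was found in 31.0% of promoters in the highest class and 11.9% in the next, against 8.75% over all. Its share did not climb evenly with level: it was 12.5% among genes listed at 0, and 7.03% at 1 to below 10 FPKM. Ribosomal protein genes, which are many in these classes, had GGCCCA in 65.8% and AACCCTA in 55.3% of 228 promoters, and both in 40.4%, where 2.17% of all promoters had both. Without them, the 51 remaining genes at 1000 FPKM or over had GGCCCA in 25.5% and AACCCTA in 17.6%, the latter in 9 genes. The 1642 genes at 100 FPKM or over without ribosomal proteins had GGCCCA in 20.95% and AACCCTA in 7.55%. All promoters but those of ribosomal proteins had 15.3% and 8.35%. Against these, the share of AACCCTA at 100 FPKM or over was thus not raised without the ribosomal protein genes, while that of GGCCCA was. However, that background includes the genes listed at 0, of which 6.82% had GGCCCA. The 20.95% lay near the 19.4% at 10 to below 100 FPKM. TATAAA differed less, at 62.0% in the highest class and 52.6% over all, and CACGTG stood at 11.3% and 7.78%. These are counts of letters in a window, not of sites in use.

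**Figure D4:**
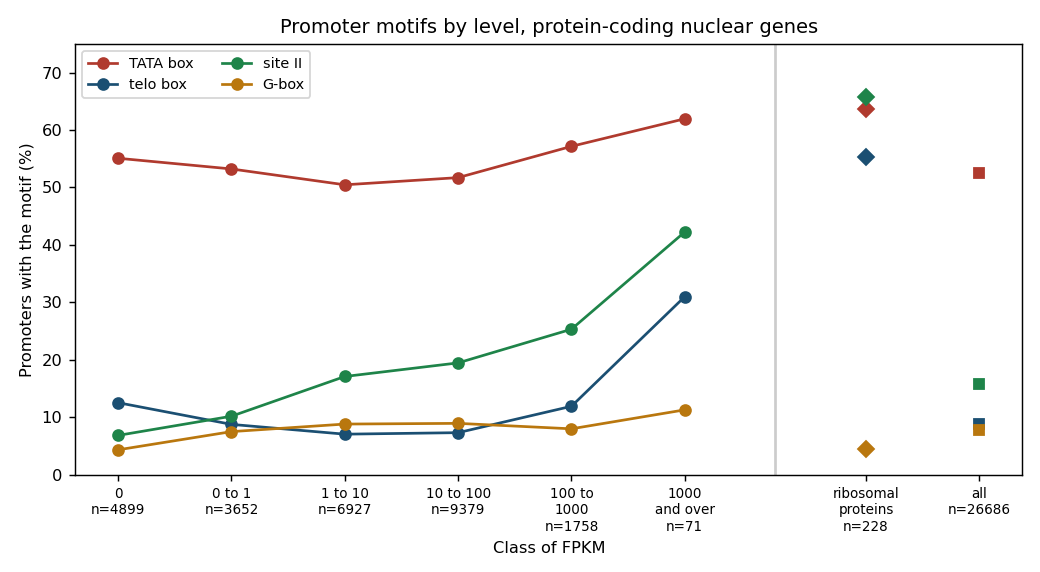
Share of promoters (%) that hold each of 4 motifs, for protein-coding nuclear genes in 6 classes of FPKM (circles, number of genes under each class), for the 228 ribosomal protein genes (diamonds) and for all 26686 genes (squares). The site II line climbs to 42.3% in the highest class and the ribosomal protein genes lie higher still for site II (65.8%) and telo box (55.3%).

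The promoters of 4 high genes are printed to show what such windows look like. All but that of PYK10 were picked for holding the motifs, so how they differ from each other is no result. PYK10 is the highest gene, GSTU19 the highest gene outside the ribosome that is alone in its locus and has TATAAA in sense orientation within the 45 to 20 bases before the start, and AT4G27090 and AT5G20290 are the highest ribosomal protein genes alone in their locus with both AACCCTA and GGCCCA. All 4 lie on the minus strand and are written 5′ to 3′ along the gene, with capitals for AACCCTA and GGCCCA on either strand and for TATAAA in that window.
PYK10 promoter, chr3:2843732-2844031: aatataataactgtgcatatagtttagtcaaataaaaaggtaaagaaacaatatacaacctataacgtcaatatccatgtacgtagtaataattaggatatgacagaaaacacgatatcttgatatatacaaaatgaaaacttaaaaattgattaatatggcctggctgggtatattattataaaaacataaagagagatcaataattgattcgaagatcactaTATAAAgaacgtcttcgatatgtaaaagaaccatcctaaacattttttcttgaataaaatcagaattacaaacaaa
GSTU19 promoter, chr1:29487958-29488257: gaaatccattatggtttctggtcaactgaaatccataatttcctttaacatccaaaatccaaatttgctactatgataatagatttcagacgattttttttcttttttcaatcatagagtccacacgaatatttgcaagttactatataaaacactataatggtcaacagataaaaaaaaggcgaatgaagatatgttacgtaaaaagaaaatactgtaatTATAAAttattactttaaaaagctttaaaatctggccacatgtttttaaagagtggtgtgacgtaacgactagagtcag
AT4G27090 promoter, chr4:13595203-13595502: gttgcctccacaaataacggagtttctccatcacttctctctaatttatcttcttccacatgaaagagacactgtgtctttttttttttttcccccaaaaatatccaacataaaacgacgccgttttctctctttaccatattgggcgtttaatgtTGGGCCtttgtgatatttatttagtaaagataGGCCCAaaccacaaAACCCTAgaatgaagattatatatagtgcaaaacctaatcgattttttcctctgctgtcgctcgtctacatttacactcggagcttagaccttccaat
AT5G20290 promoter, chr5:6853057-6853356: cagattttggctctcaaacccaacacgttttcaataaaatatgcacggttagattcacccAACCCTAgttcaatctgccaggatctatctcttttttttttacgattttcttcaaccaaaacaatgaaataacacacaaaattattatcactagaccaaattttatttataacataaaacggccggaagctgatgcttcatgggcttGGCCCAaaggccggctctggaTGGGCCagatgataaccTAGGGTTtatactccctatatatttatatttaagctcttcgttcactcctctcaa
The windows of PYK10 and GSTU19 held TATAAA 26 and 29 bases before the start and neither AACCCTA nor GGCCCA. That of AT4G27090 held 1 AACCCTA and 2 GGCCCA, and that of AT5G20290 2 of each, with no TATAAA in sense in the short window. Over all promoters, 7.72% had TATAAA in that short window, and 14.1% of the 71 in the highest class did.

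Gene structure also varied with level. The median number of exons was 2 among genes listed at 0, 5 at 10 to below 100 FPKM and 3 at 1000 FPKM or over, and genes with a single exon made up 34.2%, 12.7% and 15.5% of these classes. Median coding length was 645 bases among genes listed at 0, 1332 bases at 1 to below 10 FPKM and 732 bases at 100 to below 1000 FPKM. Some high genes of 1 family lay side by side. Of 164 pairs of neighbouring loci with both genes at 100 FPKM or over, 31 joined members of the same family, and 57 genes, 3.09% of the 1843 nuclear genes at that level, belonged to such a pair. The share of same-family pairs among all 31089 neighbouring pairs was not counted. These counts can therefore not be read as particular to high genes. Lipid transfer proteins, jacalin lectins and ribosomal proteins gave 4 pairs each. GSTF9 lies beside GSTF10 and PBP1 beside JAL31 (119.7 FPKM). In the lipid transfer pair AT5G46890 and AT5G46900, at 839 and 784 FPKM, 26.8% and 22.5% of the transcript words of 50 bases were shared with another gene, so a part of each value may belong to a copy.

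The label of root tip was checked against marker genes of root cell types. Of 66 root markers in 11 lists, 65 stood at 1 FPKM or over, the exception being the xylem regulator VND6 at 0.485 FPKM. Since 68.0% of all protein-coding genes stood there too, the count alone is a weak check of the label. All 8 markers of the quiescent centre and meristem were detected, from the peptide gene RGF1 at 1.103 FPKM and the stem cell regulator WOX5 at 2.24 FPKM to SCR at 29.9 FPKM. The 7 markers of cell division ran from 6.25 FPKM (CYCA3;1) to 44.6 FPKM (PCNA1), and the 6 of the root cap from 2.99 FPKM (FEZ) to 38.2 FPKM (CEL5). Some markers of hair cells, endodermis, suberin and xylem reached higher levels. The 8 hair cell markers ran from 19.1 FPKM (RSL4) to 158 FPKM (PRP3), the 7 of the endodermis from 22.4 FPKM (MYB36) to 340 FPKM (CASP1, locus shared), and the 4 of suberin from 11.96 FPKM (GPAT5) to 199 FPKM (ASFT). In xylem the proteases XCP1 and XCP2, which act as vessel cells die, had 151 and 132 FPKM, with the secondary wall cellulose synthase genes CESA4, CESA7 and CESA8 at 23.2, 12.8 and 14.5 FPKM. The 4 non-hair cell markers lay between 4.23 FPKM (MYB23) and 30.7 FPKM (TTG1), the cortex marker JKD at 22.7 FPKM, the 5 of pericycle and stele between 9.44 FPKM (LBD16) and 102.1 FPKM (PHO1), and the 7 of phloem between 1.42 FPKM (CALS7) and 22.9 FPKM (BAM3). Since the sample is a mix of cells, fewer cells of a type and less RNA per cell cannot be told apart.

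Markers of other organs were near 0, apart from those of green tissue. Of 15 markers of pollen, seed and flower, 14 were below 1 FPKM and 7 were listed at 0: the pollen gene VGD1, the seed genes CRA1, CRU3, SESA1 and OLEO2, and the flower genes AG and AP1. The exception was the floral gene AP3 at 1.25 FPKM. Of 10 green leaf markers, 7 were at 1 FPKM or over, with a summed level of 124 FPKM. PSBO1 of photosystem II had 45.3 FPKM, LHCB1.3 36.8 FPKM, PSAD-1 23.5 FPKM and RBCS1A, a small subunit of Rubisco, 10.02 FPKM, while LHCB1.1 had 0.570 FPKM and RBCS1B 0.515 FPKM. Over 58 nuclear photosynthesis genes the median was 8.35 FPKM, and the family held 0.106% of the summed FPKM. The part of shoot tissue in these levels was not tested.

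**Figure D5:**
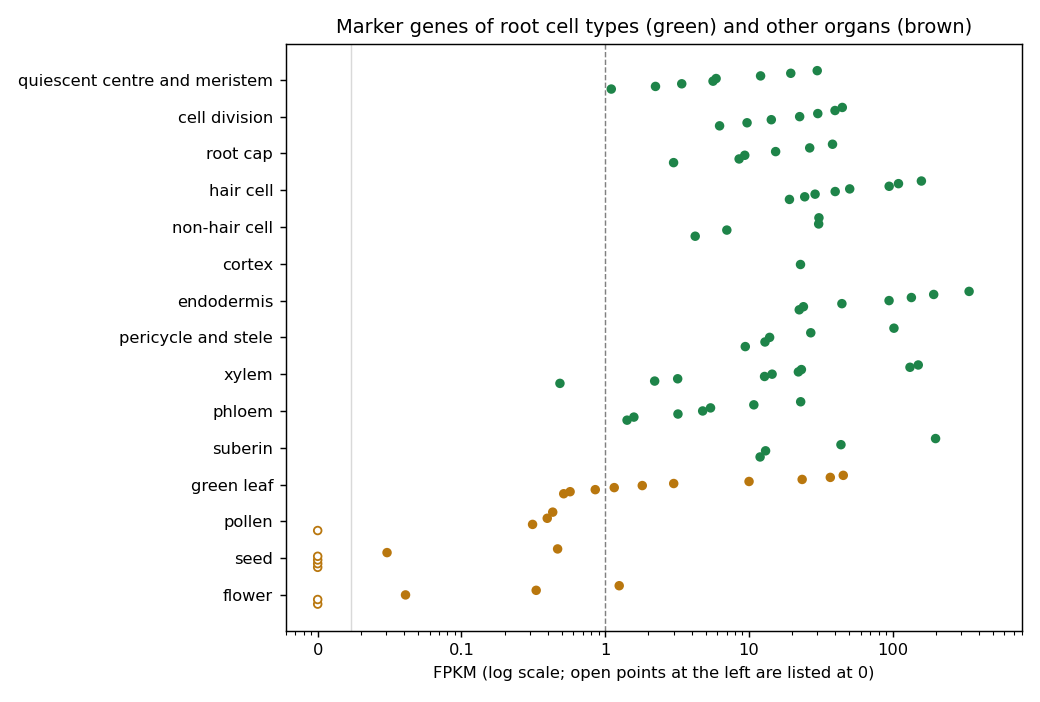
FPKM (log axis, open points at the left for genes listed at 0) of marker genes of 11 root cell type lists (green) and 4 lists of other organs (brown), 1 point per gene, with a dashed line at 1 FPKM. All root markers except VND6 at 0.485 FPKM lie at or right of the line, and those of pollen, seed and flower lie left of it except AP3 at 1.25 FPKM.

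Organelle genes contributed little to the summed FPKM. The 146 mitochondrial genes summed to 1158 FPKM (0.127%) and the 133 plastid genes to 122 FPKM (0.0134%), together 0.141% of the summed FPKM. The highest were the mitochondrial ribosomal RNAs RRN18 at 538 FPKM and RRN26 at 448 FPKM, followed by ORF107A at 52.2 FPKM, NAD5 at 13.5 FPKM and RPL16 at 10.3 FPKM. No plastid gene exceeded 6.92 FPKM. Nuclear protein-coding genes held 98.8% of the sum. The nuclear ribosomal RNA gene AT3G41768 was listed at 0 with the status HIDATA in place of OK. Its 0 therefore need not be its level, and the sum may leave it out. Among nuclear genes that RefSeq lists as non-coding RNA, AT1G10682 stood at 1201 FPKM and AT5G07322 at 215 FPKM. MIR163, a microRNA precursor gene, had 122 FPKM, although 167 of the 178 microRNA genes were listed at 0. All 623 transfer RNA genes were listed at 0. The upstream open reading frame entries CPuORF9 and CPuORF1 had 735 and 643 FPKM, which cannot be told apart from the level of the transcripts that carry them.

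Genes listed at 0 were unevenly spread over transcript lengths and sequence copies. Of 26687 protein-coding genes, 4899 (18.4%) were listed at 0. That share was 94.5% for the 528 genes with a RefSeq transcript of up to 300 bases, 71.5% over 300 and up to 600 bases, 29.8% over 600 and up to 1000, 12.5% over 1000 and up to 2000 and 4.36% over 2000. It also followed sequence copies: 16.7% of 23093 genes that share no word of 50 bases with another transcript were listed at 0, but 82.0% of the 111 genes that share at least 99% of theirs, of which 5 reached 1 FPKM. Among 430 genes of ribosomal proteins, translation factors, ubiquitins, histones, tubulins, actin proteins and vacuolar pump subunits, 26 were listed at 0. Some of these are known as genes of pollen or sperm cells, such as ACT12, ADF10 and MGH3. Others include the ribosomal L41 genes AT2G40205 and AT3G08520, whose RefSeq transcripts have 349 and 246 bases, and AT1G59359, a ribosomal S5 family gene with all of its words shared.

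The gene named in the study's title, ITPK4 (AT2G43980, chromosome 2, 18208253 to 18211644), had 25.4 FPKM in wild-type root tips on MS and ranked 6316. ITPK1 (AT5G16760), of the same family of inositol trisphosphate kinases, had 77.1 FPKM, AT4G08170 13.9 FPKM and AT4G33770 4.46 FPKM.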

How the data were processed

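RNA of root tips was sequenced, and the authors deposited, per the file headers, tables in the gene-level layout of Cuffdiff, with 1 FPKM value for each gene and group, the 3 samples of a group combined. HISAT2, HTSeq, a package for count-based differential expression and the genome build TAIR10 are listed without versions in the submitters' processing notes. None of these tools writes tables of this layout, so which program computed the FPKM values is uncertain. The main values are the WT_MS column of the table that sets WT_NaCl beside WT_MS. The same libraries also appear in the table of 6-6_MS, where the value was 0.979 times as high at the median over genes at 1 FPKM or over (range 0.959 to 1.06), a rescaling and not a replicate. No test or error could be computed from combined values, and the depth is unknown.

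Families were read from symbols, descriptions and, for ribosomal proteins, RefSeq notes. Named genes were the 30 highest nuclear genes alone in their locus, the 5 highest organelle genes, the 3 highest members of each family, the markers and the ITPK genes, and further members were named where a sentence needed them. Members and lists were chosen with earlier results of these data known, and 4 families (respiratory complexes, GASA peptides, TRAF-like and dirigent proteins) were added after values were seen. A dominant share is the FPKM of the highest member over the sum of the family. Genes were matched by locus code to RefSeq's annotation of TAIR10.1 (32809 of 33557, 97.8%). With 1 added to the start, 31.1% of 28626 nuclear genes alone in their locus had the same start and end there, and 95.0% had both ends within 500 bases. For 7 genes whose symbol had turned into a date, the RefSeq symbol was used. Of the markers planned, 6 had no single gene of that name. The motif search and the count of shared words were tested on simulated data. Python 3.11.15, pandas 2.3.3 and numpy 2.4.6 were used.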

Additional observations from a re-analysis of the deposited data

How the results depend on the processing

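A value counted as moved when it changed by more than 1.5 times, since no spread between samples was there to judge by. Of 1112 values recomputed over 9 alternatives, 25 moved. The value of the other deposited table, scaling to nuclear genes and leaving out members below 1 FPKM moved none. Thresholds 1.5 times lower or higher gave 170 or 19 genes in place of 72 at 1000 FPKM, while the counts at 1, 10 and 100 FPKM moved less. Using only genes alone in their locus changed the highest member of 12 of 62 families and moved 7 values, since genes such as PYK10 were then left out: the beta-glucosidase share became 0.205% with BGLU21 first at 40.1%. Using only genes with status OK moved 1 value, the share of flower markers at 1 FPKM. Both remaining alternatives were chosen after seeing the data. FPKM multiplied by transcript length, an estimate of the share of fragments, put ribosomal proteins at 7.46% of the sum and moved 14 other families. Arabinogalactan and fasciclin-like proteins fell to 1.12% and lipid transfer proteins to 0.834%, while others, such as the methionine cycle at 1.00%, rose. Glycolysis enzymes, at 1.49%, then followed ribosomal proteins, so the order of the families below them depends on this choice. Leaving out the genes that share over 50% of their words of 50 bases moved none.

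Leaving out each replicate in turn was not run, because the values combine the 3 samples. No paired analysis was possible because no comparison was made and the columns carry no replicate numbers. The limits are a single value per gene, unknown depth, shared loci, near-identical copies and short transcripts.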
